A study of Saccharomyces cerevisiae with 18 samples.

Results

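The genes described here encode 9 nuclear subunits of the mitochondrial ATP synthase of Saccharomyces cerevisiae and the protein that inhibits it, INH1. They were chosen by name, as the probe sets whose gene symbol in the array's annotation is ATP1, ATP2, ATP3, ATP4, ATP5, ATP7, ATP14, ATP16, ATP17 or INH1. Each of the 10 genes had 1 probe set, among 5498 S. cerevisiae probe sets tested. Their transcripts were followed in 3 strains grown with and without oxygen, on 18 Affymetrix Yeast Genome 2.0 arrays that fall into 6 groups of 3 biological replicates.

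ATP synthase sits in the inner mitochondrial membrane and makes ATP from ADP and phosphate with the energy of the proton gradient that the respiratory chain builds. Its membrane part, Fo, passes protons and turns a central stalk inside the catalytic head, F1, while a peripheral stalk holds the head still. When the gradient is lost the enzyme can run backwards and hydrolyse ATP, and Inh1 binds F1 to block that reaction. Without oxygen yeast has no working respiratory chain and lives from fermentation, and genes of respiration are known to be transcribed less.

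All 3 strains were derived from the host CEN.PK 530-1C, which lacks a working triose phosphate isomerase gene (TPI1) of its own and depends on the fission yeast isomerase gene POT1 (tpi1) of a multicopy 2 μm plasmid. In strain NC, the control, that plasmid carried the TPI1 promoter and no amylase gene. Strain AAC carried an amylase gene with the alpha factor leader behind the TPI1 promoter and is labelled as the high producer. Strain AAP carried the amylase gene with the same leader behind the TEF1 promoter and is labelled as producing less. Cultures of 500 ml SD-SCAA medium were run at 30 °C and 600 rpm, aerobically or anaerobically, and RNA was taken when the optical density reached about 1. The strain AAC is not to be confused with the ADP/ATP carrier genes AAC1 and AAC3, which are always called genes below.

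Array medians over the tested probe sets lay between 7.08 and 7.13 log2 units. On each array 90.1% to 91.9% of them exceeded the background level of their array. That level, 5.54 to 5.59 log2 units, is the 95th percentile of 1746 fission yeast probe sets on the same arrays. The genes that report oxygen followed the labels: the anaerobic genes ANB1 and TIR1 rose by 4.83 and 6.34 log2 units on average over the strains, and CYC1, for cytochrome c, was at least 51.7-fold lower without oxygen. The host's TPI1 was at background in all 6 groups. The signal of fission yeast tpi1 was 6.17 to 7.29 log2 units in NC and 8.97 to 10.50 in AAC. In AAP it was 12.38 to 12.48 on 5 of 6 arrays, and on the array labelled AAP aerobic replicate 3 it was 9.24, inside the range of the AAC aerobic arrays (8.97 to 9.41). That array goes against its label in this signal, so the main results that rest on it are also given without it. The strains differ in amylase cassette and in isomerase signal together, and these cannot be told apart. With 3 arrays a group, their number limits the precision throughout.

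All 10 probe sets were above background in every group. The lowest group mean was that of INH1 in anaerobic AAP, 7.03 ± 0.0134 log2 units (SD, n = 3), and the highest that of ATP1 in aerobic AAC, 11.47 ± 0.0154 (SD, n = 3). Probe sets differ in how brightly they read, so levels are compared within a gene only. The plot of all arrays by gene shows the values.

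**Figure D1:**
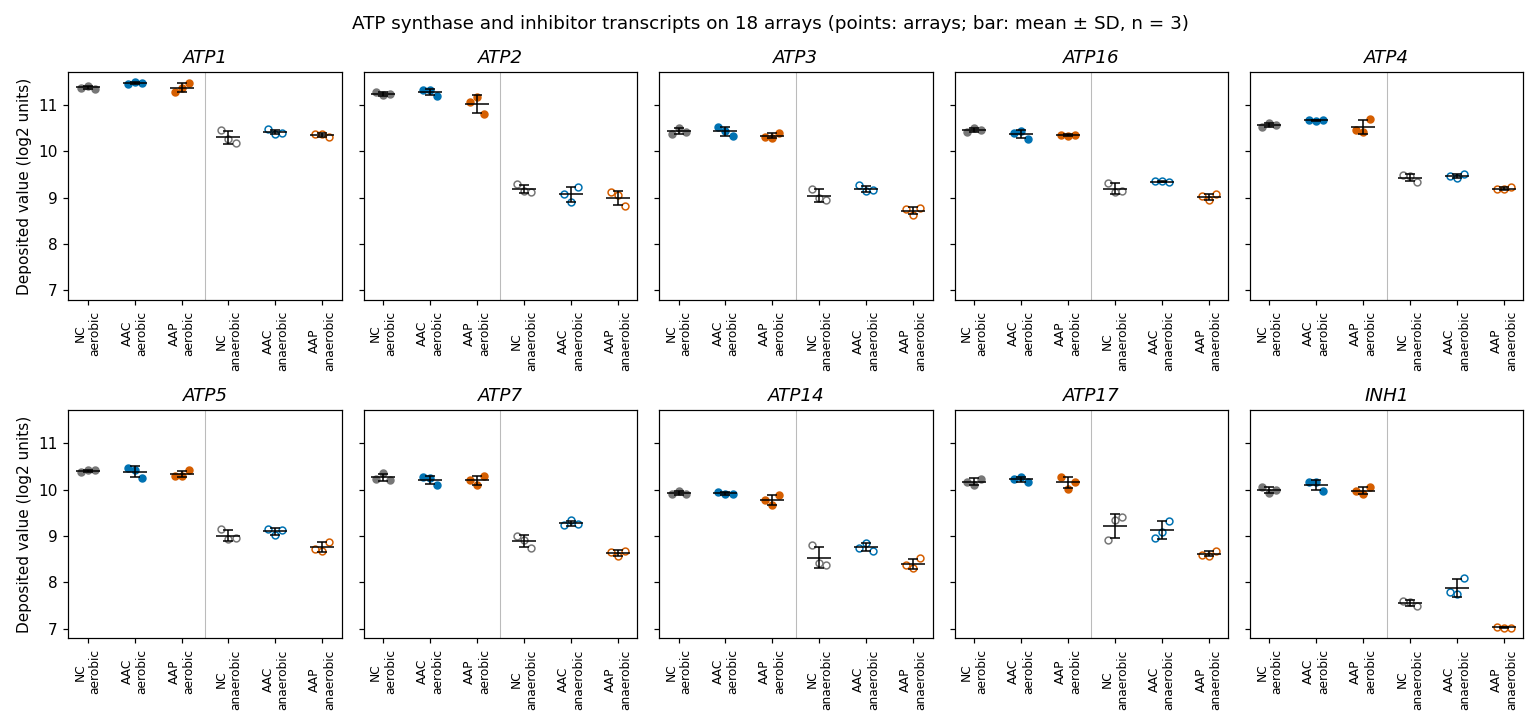
Deposited log2 value (vertical axis, log2 units) of each of the 10 genes on each of the 18 arrays, by strain and oxygen. Filled points are aerobic arrays, open points anaerobic ones, and bars give the mean ± SD of 3 arrays. Every anaerobic array of a gene lies below every aerobic array of it, and the lowest INH1 values, 7.02 to 7.04, are the 3 anaerobic AAP arrays.

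The first comparison asks how growth without oxygen changed these transcripts in each strain. All 10 genes fell in each of the 3 strains, and the inhibitor fell most. INH1 was 5.79-fold lower without oxygen on average over the strains, ATP2, the catalytic beta subunit, was 4.26-fold lower, and the other 8 subunits were 2.08-fold to 2.67-fold lower. In the limma fit the adjusted p was at most 3.84e-06 for all 30 pairs of gene and strain. Over all tested probe sets, 28.0% were called lower in NC, 22.8% in AAC and 17.2% in AAP, and 12.5% were called lower in all 3 strains. The median log2 difference of the 10 genes was -1.38 in NC, -1.18 in AAC and -1.55 in AAP, beside -0.02, 0.00 and 0.02 over all tested probe sets. Arrays with and without oxygen did not overlap for any of the 10 genes in any strain, which held in the falling direction for 35.3%, 29.6% and 20.5% of all tested probe sets in NC, AAC and AAP. Without the array labelled AAP aerobic replicate 3 all 10 genes still fell in AAP, with a median of -1.52. In bulk RNA, fewer cells with a transcript and less of it per cell cannot be told apart.

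Among the F1 subunits ATP2 stood out. ATP2, the beta subunit that carries the catalytic sites, read 11.28, 11.21 and 11.23 log2 units in aerobic NC, 11.31, 11.33 and 11.20 in aerobic AAC, and 11.06, 11.18 and 10.80 in aerobic AAP. In anaerobic cultures ATP2 read 9.30, 9.14 and 9.13 in NC, 9.09, 8.90 and 9.23 in AAC, and 9.12, 9.06 and 8.83 in AAP. All anaerobic arrays lay far under every aerobic array. Among them the AAC arrays overlapped both other strains, and the 3 AAP arrays lay just under the 3 NC arrays. The oxygen effect on ATP2 was -2.05 ± 0.0994 log2 units (SE) in NC, -2.21 ± 0.0994 in AAC and -2.02 ± 0.0994 in AAP, and it ranked between 25 and 42 among the falls of the 5498 probe sets.

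ATP1, the alpha subunit that alternates with beta in the head, had the smallest fall over the strains. It read 11.37, 11.42 and 11.35 in aerobic NC, 11.46, 11.49 and 11.47 in aerobic AAC, and 11.28, 11.37 and 11.46 in aerobic AAP. Without oxygen ATP1 read 10.46, 10.26 and 10.17 in NC, 10.48, 10.38 and 10.40 in AAC, and 10.37, 10.37 and 10.30 in AAP. The gap between the oxygen conditions was alike in the 3 strains, at log2 differences of -1.08, -1.06 and -1.02. For ATP1 the fall averaged 2.08-fold over the strains (adjusted p = 6.17e-13), so the alpha and beta subunits of the same head differed in the size of their fall, at -1.05 (95% interval -1.13 to -0.98) against -2.09 (-2.21 to -1.97). ATP3, the gamma subunit of the central stalk, differed by -1.41 ± 0.0392 (SE) on average and ATP16, the delta subunit beside it, by -1.20 ± 0.0323.

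The peripheral stalk genes moved by similar amounts. On average over the strains the log2 difference was -1.22 for ATP4 (subunit b), -1.42 for ATP5 (the oligomycin sensitivity subunit, OSCP), -1.29 for ATP7 (subunit d) and -1.31 for ATP14 (subunit h). Their adjusted p-values were at most 3.73e-12. By strain the values of these 4 genes ran from -0.93, for ATP7 in AAC, to -1.57, for ATP5 in AAP. ATP17, subunit f of the membrane part, had the smallest fall of the 10 genes in NC, -0.95 ± 0.112 (SE), against -1.10 in AAC and -1.54 in AAP. Its rank among the falls was 167 in NC, the lowest of any of the 10 genes, and 65 in AAP.

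INH1 was the gene of the set that changed most with oxygen. It read 10.06, 9.93 and 9.98 log2 units in aerobic NC, 10.15, 10.16 and 9.97 in aerobic AAC, and 9.97, 9.90 and 10.05 in aerobic AAP. Without oxygen INH1 read 7.60, 7.58 and 7.49 in NC, 7.79, 7.74 and 8.09 in AAC, and 7.04, 7.02 and 7.02 in AAP. The aerobic arrays of the strains overlapped, whereas the anaerobic arrays separated fully by strain, AAC above NC and NC above AAP. Its fall was 5.40-fold in NC, 4.66-fold in AAC and 7.72-fold in AAP, with adjusted p-values of 7.98e-13, 2.77e-12 and 8.89e-14. In AAP only 11 of the 5498 probe sets had a larger fall, since INH1 ranked 12.

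**Figure D2:**
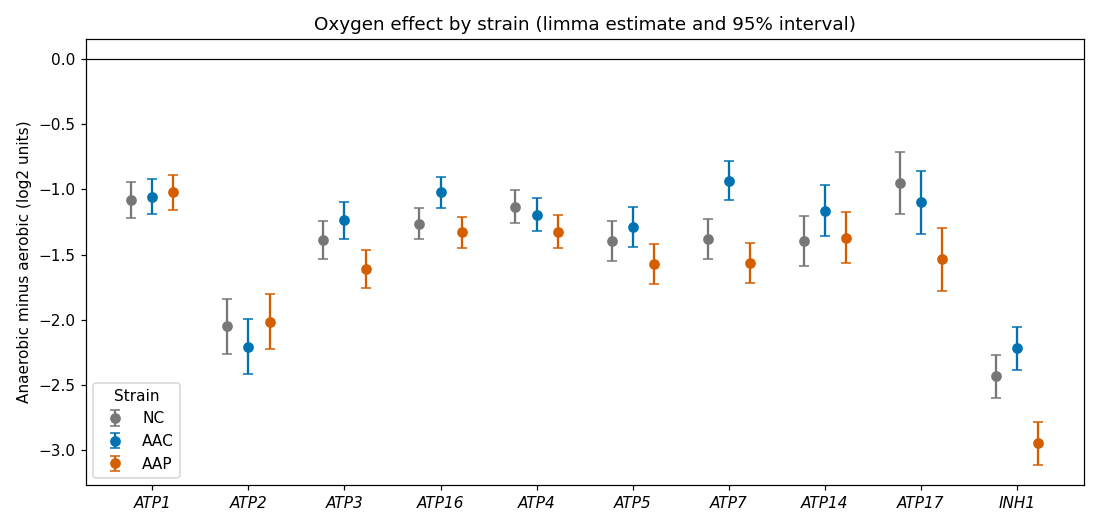
Anaerobic minus aerobic difference (vertical axis, log2 units) of each gene in strains NC, AAC and AAP, as limma estimates with 95% intervals. All 30 estimates lie below 0, from -0.93 for ATP7 in AAC to -2.95 for INH1 in AAP, and INH1 and ATP2 lie below the other genes in every strain.

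The second comparison asks whether the strains differed while oxygen was present. None of the 10 genes passed the threshold in any of the 3 aerobic strain comparisons in the limma fit. At an unadjusted p under 0.05 there were 0 for AAC against NC, 1 for AAP against NC (ATP2) and 2 for AAC against AAP (ATP2 and ATP4), where 34.2%, 9.37% and 21.2% of all tested probe sets met that threshold. At the adjusted threshold 19.4%, 0.200% and 3.97% of all tested probe sets were called in either direction. The mean was lowest in AAP for all 10 genes. How often this held over all tested probe sets was not counted, so this order is not read as a strain effect. The differences of AAP from NC were small, from -0.01 for ATP1 to -0.22 for ATP2, with adjusted p-values of 0.512 to 0.983. When the array labelled AAP aerobic replicate 3 was left out, these differences ran from -0.02 for ATP17 to -0.21 for ATP14, with ATP2 at -0.12 and ATP1 at -0.06, and adjusted p-values of 0.392 or more. ATP2 was then past the unadjusted threshold in none of the 3 comparisons, while other genes were. These were ATP4 for AAC against NC, ATP4 and ATP14 for AAP against NC, and ATP1 and ATP4 for AAC against AAP. Of all 5498 tested probe sets 2240, 407 and 2086 were past it in those comparisons. AAC differed from NC by -0.09 (ATP16) to 0.10 (ATP4), and every 95% interval of that comparison lay between -0.21 and 0.30. In the fit with that array left out, ATP4 was higher in AAC than in AAP by 0.23 ± 0.0458 (SE, adjusted p = 0.00174), where 685 of 5498 probe sets were called higher. The other 9 genes had adjusted p-values of 0.108 or more in that comparison.

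The third comparison sets the strains against each other without oxygen, where the 10 genes separated. The mean was lowest in AAP, the strain labelled as producing less amylase, for 9 of the 10 genes (all but ATP1), and highest in AAC for 8 (all but ATP2 and ATP17). AAP had the lowest of the 3 anaerobic means for 32.0% of all tested probe sets. Against AAP, 8 of the 10 genes were called higher in AAC, by 1.21-fold (ATP4) to 1.80-fold (INH1). Over all tested probe sets 13.3% were called higher in AAC. The genes not called were ATP1 and ATP2, the subunits that form the catalytic sites, at 0.07 (95% interval -0.07 to 0.20) and 0.07 (-0.14 to 0.28) log2 units. They also have the longest coding sequences of the 10 genes, 1638 and 1536 bp against 258 to 936 bp. Role and length cannot be told apart here. The median difference of the 10 genes was 0.34, against -0.03 over all tested probe sets. All AAC arrays lay above all AAP arrays for 9 of the 10 genes, and 20.1% of all tested probe sets did not overlap in that direction. The gene that overlapped was ATP2.

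INH1 had the largest difference between the strains, 0.85 ± 0.0781 log2 units (SE) in AAC over AAP (adjusted p = 4.92e-06). ATP7 followed. It read 9.23, 9.33 and 9.26 in anaerobic AAC, 8.65, 8.57 and 8.69 in AAP, and 9.00, 8.91 and 8.74 in NC. Its 3 groups did not overlap, and AAC exceeded AAP by 0.64 ± 0.0704 (SE, adjusted p = 2.37e-05), 1.56-fold. ATP17 read 8.96, 9.09 and 9.33 in anaerobic AAC, 8.59, 8.58 and 8.68 in AAP, and 8.91, 9.34 and 9.40 in NC. For ATP17 the AAC and NC arrays overlapped and the AAP arrays lay below both, with AAC 0.51 ± 0.112 above AAP (SE, adjusted p = 0.00358).

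ATP3, of the central stalk, read 9.27, 9.16 and 9.16 in anaerobic AAC, 8.75, 8.64 and 8.78 in AAP, and 9.20, 8.98 and 8.96 in NC. Here too the 3 AAP arrays lay under all 6 others, and AAC was 0.47 ± 0.0679 above AAP (SE, adjusted p = 0.000229). The remaining 4 called genes, ATP14, ATP5, ATP16 and ATP4, were higher in AAC by 0.35, 0.33, 0.33 and 0.27, with adjusted p-values of 0.000697 to 0.00876. ATP14 was not called in this comparison once a trend of the values on coding length was removed (0.23, adjusted p = 0.0787).

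Against the control the separation was mostly on the side of AAP. Without oxygen 7 of the 10 genes were called lower in AAP than in NC, against 8.06% of all tested probe sets. ATP17 differed by -0.60 ± 0.112 (SE, adjusted p = 0.00288), INH1 by -0.53 ± 0.0781 (adjusted p = 0.000653) and ATP3 by -0.32 ± 0.0679 (adjusted p = 0.00574). ATP7, ATP5, ATP4 and ATP16 were lower by smaller amounts, at -0.25, -0.25, -0.23 and -0.18, with adjusted p-values of 0.0146 to 0.0378. ATP1, ATP2 and ATP14 were not called, at 0.05, -0.19 and -0.13. AAP arrays lay under all NC arrays for 8 of the 10 genes, beside 15.2% of all tested probe sets. The 7 calls became 4 without NC anaerobic replicate 1 and 3 without AAP anaerobic replicate 1 or replicate 2, while INH1, ATP17 and ATP3 were called in each of the 26 alternatives run for this comparison.

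AAC exceeded NC without oxygen for 2 of the 10 genes, where 6.71% of all tested probe sets were called higher. These were ATP7, by 0.39 ± 0.0704 (SE, adjusted p = 0.00216), and INH1, by 0.32 ± 0.0781 (adjusted p = 0.0159). The other 8 genes ran from -0.11 (ATP2) to 0.22 (ATP14) with adjusted p-values of 0.0900 or more. The count was 6 without NC anaerobic replicate 1, when ATP1, ATP3, ATP16 and ATP14 were called as well, and 1 without NC anaerobic replicate 3, when INH1 was not (0.28, adjusted p = 0.0682). The array NC anaerobic replicate 1 read above its group mean for 9 of the 10 genes, by 0.04 (INH1) to 0.26 (ATP14), and below it for ATP17, by -0.30. Its fission yeast tpi1 signal was 7.29, against 6.42 and 6.43 in the other NC anaerobic arrays, and the part of this in the result was not tested.

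**Figure D3:**
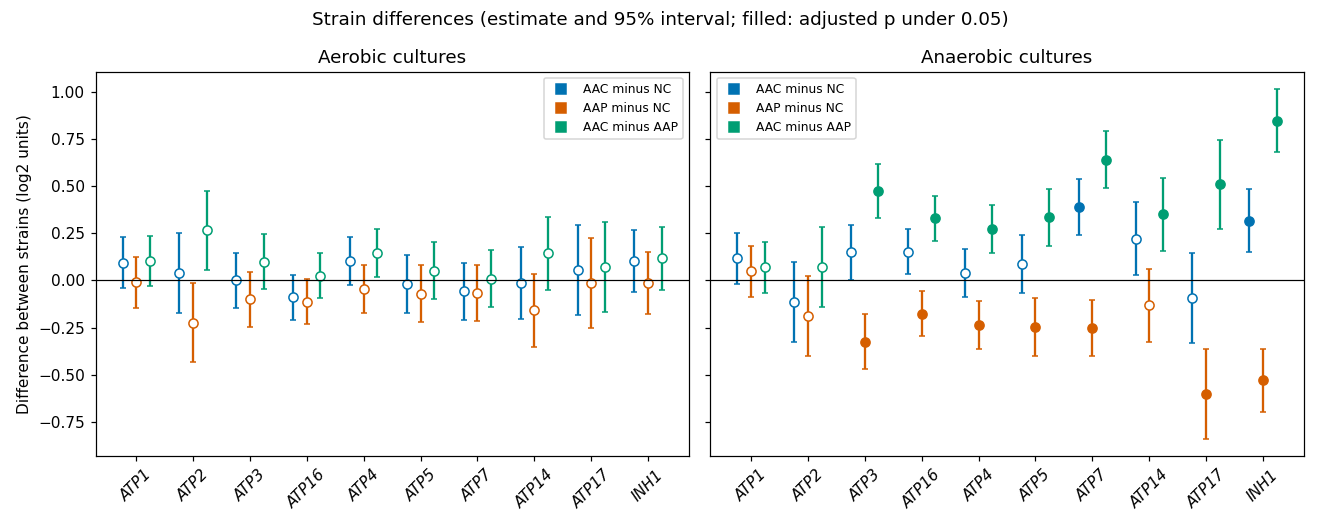
Difference between strains (vertical axis, log2 units) of each gene in aerobic (left) and anaerobic (right) cultures, as limma estimates with 95% intervals, with filled points where the adjusted p was under 0.05. No aerobic point is filled, and in anaerobic cultures 8 points are filled for AAC minus AAP, 7 for AAP minus NC and 2 for AAC minus NC.

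The fourth comparison asks whether the size of the oxygen effect itself differed between strains, which the interaction terms of the limma fit test. INH1 and ATP7 differed between AAC and AAP. INH1 changed by -2.22 in AAC and by -2.95 in AAP, a difference of 0.73 ± 0.110 log2 units (SE, adjusted p = 0.00222). ATP7 changed by -0.93 in AAC and by -1.56 in AAP, a difference of 0.63 ± 0.0996 (adjusted p = 0.00302). Both differences passed the threshold in each of 26 alternatives, with adjusted p-values of at most 0.0374 for INH1 and 0.0129 for ATP7. They were 0.69 and 0.58 when the array labelled AAP aerobic replicate 3 was left out. ATP3 (0.37, adjusted p = 0.0445) and ATP16 (0.31, adjusted p = 0.0447) also passed, but not without that array (0.34, adjusted p = 0.0635, and 0.30, adjusted p = 0.0537), nor in 18 and 19 of the 26 alternatives. These 4 of 10 genes stand beside 1.40% of all tested probe sets called in that direction. ATP1 and ATP2 gave -0.03 (95% interval -0.22 to 0.16) and -0.19 (-0.49 to 0.11).

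Between AAP and NC the oxygen effect differed for 2 of the 10 genes, beside 4.47% of all tested probe sets in that direction. ATP17 changed by -1.54 in AAP and -0.95 in NC, a difference of -0.59 ± 0.158 (SE, adjusted p = 0.0297), and INH1 changed by -2.95 and -2.43, a difference of -0.52 ± 0.110 (adjusted p = 0.0114). Without the array labelled AAP aerobic replicate 3 these were -0.58 (adjusted p = 0.0436) and -0.48 (adjusted p = 0.0184). With the trend on coding length removed INH1 was not called (-0.34, adjusted p = 0.0706). ATP17 did not pass in 8 of the 26 alternatives, with adjusted p-values up to 0.0786, and INH1 did not pass in 2. Between AAC and NC, ATP7 alone of the 10 genes passed, by 0.45 ± 0.0996 (SE, adjusted p = 0.0277), beside 1.67% of all tested probe sets. ATP7 did not pass in that comparison in 7 of the 26 alternatives, and the count was 0 to 3 when single arrays were left out.

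The remaining nuclear subunits, from a list of the rest of the enzyme, were measured by 5 probe sets, and all 5 fell. TIM11 and ATP20, subunits e and g, which hold dimers of the enzyme together, were 3.63-fold and 4.21-fold lower on average over the strains. ATP19 (subunit k), ATP15 (the epsilon subunit of F1) and ATP18 (subunit i/j) were 3.05-fold, 2.08-fold and 2.01-fold lower. In the mean over the strains 30.4% of all tested probe sets were called lower. The subunits made inside the mitochondrion, OLI1, ATP6 and ATP8, are not analysed here. Without oxygen 4 of these 5 genes were called higher in AAC than in AAP, beside 13.3% of all tested probe sets. ATP15 led at 0.71 ± 0.0747 (SE, adjusted p = 1.67e-05), and TIM11 was not called (0.43, adjusted p = 0.0606). Against NC 4 of the 5 were called lower in AAP, beside 8.06% of all tested probe sets, and ATP20 was not (-0.23, adjusted p = 0.0901).

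Of 14 genes that help to assemble or express the enzyme, 13 were called lower in the mean over the strains, beside 30.4% of all tested probe sets. The median log2 difference of the 14 genes was -0.40. ATP12 and ATP11, the chaperones that bring alpha and beta together, were 1.85-fold and 1.70-fold lower, ATP25 was 1.75-fold lower and ATP23, a protease and chaperone for Atp6, 1.52-fold lower. One of the 13, ATP10, lay under background in all 6 groups, so no fold is given for it. The gene not called was NCA3, at 0.14 (adjusted p = 0.252), and it was called higher, by 0.24 (adjusted p = 7.84e-05), when the array labelled AAP aerobic replicate 3 was left out.

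The carriers that exchange ATP, ADP and phosphate across the inner membrane split by isoform. PET9, the main aerobic ADP/ATP carrier, was 4.23-fold lower without oxygen and the phosphate carrier MIR1 4.15-fold lower. The gene AAC3, the carrier isoform made without oxygen, rose 8.70-fold (log2 difference 3.12 ± 0.0519, SE, adjusted p = 9.12e-17). PIC2, the second phosphate carrier, and the gene AAC1, a minor ADP/ATP carrier, were 1.91-fold and 1.24-fold lower. On the array labelled AAP aerobic replicate 3, PIC2 read 8.34, against 7.31 and 7.21 on the other AAP aerobic arrays. That reading lay inside the AAC aerobic range of 8.21 to 8.46. Without that array the mean oxygen effect on PIC2, the median of the 5 carriers, was -0.82 log2 units, against -0.94 with it. In anaerobic cultures the gene AAC3 went against the ATP synthase genes, being lower in strain AAC than in strain AAP by -0.41 ± 0.0900 (SE, adjusted p = 0.00371), and PET9 and MIR1 were not called there (0.17, adjusted p = 0.0728, and 0.21, adjusted p = 0.0740).

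STF1, a relative of Inh1 that also binds F1, and STF2, a protein described as helping the inhibitors bind, responded to oxygen otherwise than INH1, with values that were smaller or of the opposite sign. STF1 differed by -0.23 ± 0.0874 (SE, adjusted p = 0.0311) in the mean over the strains. STF2 was higher without oxygen in NC, by 1.63 ± 0.257 (SE, adjusted p = 8.02e-05), and was not called in AAC (0.61, adjusted p = 0.0636) or AAP (-0.28, adjusted p = 0.420). On the array labelled AAP aerobic replicate 3, STF2 read 9.47, above 8.70 and 8.09 on the other AAP aerobic arrays and above the AAC aerobic range of 9.12 to 9.25. Without that array the oxygen effect on STF2 was 0.08 in AAP and 0.61 in AAC (adjusted p = 0.0105), and AAP still differed from NC in it, by -1.55 ± 0.272 (SE, adjusted p = 0.00354). Without oxygen both genes had their highest mean in AAC and their lowest in AAP, the order seen for INH1. STF1 was called higher in AAC than in AAP by 0.48 ± 0.151 (SE, adjusted p = 0.0240) and STF2 by 1.31 ± 0.257 (adjusted p = 0.00177). STF2 was also called lower in AAP than in NC (-1.12, adjusted p = 0.00862), and STF1 was not (-0.23, adjusted p = 0.302). Between AAC and NC without oxygen neither was called (0.26, adjusted p = 0.302, for STF1 and 0.19, adjusted p = 0.703, for STF2). In aerobic cultures STF2 was called higher in AAC than in NC (1.20, adjusted p = 0.00584), and STF1 was not (0.36, adjusted p = 0.109). Both were called in that comparison when the array labelled AAP aerobic replicate 3 was left out. That array is in neither group, so the 2 differences were unchanged. In that fit 1650 of 5498 tested probe sets were called in this comparison, against 1067 with the array. With oxygen neither was called between AAC and AAP (0.34, adjusted p = 0.207, and 0.42, adjusted p = 0.379), but both were once the array labelled AAP aerobic replicate 3 was left out (0.58, adjusted p = 0.000478, and 0.78, adjusted p = 0.0100).

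The respiratory chain and the vacuolar ATPase give the scale for these changes. All 9 genes of the cytochrome bc1 complex fell, with a median of -2.33 over the strains, led by CYT1, cytochrome c1, at -3.91 ± 0.0617 (SE). Of 9 nuclear genes of cytochrome c oxidase 8 fell and COX5B, the isoform made without oxygen, rose by 1.60. The median of that list was -2.47, against -1.30 for the 10 ATP synthase genes. The vacuolar ATPase, a related rotary enzyme that pumps protons into the vacuole, went the other way, with 12 of 15 genes called higher, a median of 0.35 and VMA4 highest at 0.66. Over all tested probe sets 31.2% were called higher. With the array labelled AAP aerobic replicate 3 left out VMA2 was called lower (-0.19, adjusted p = 0.0148), and the counts of the bc1 and oxidase genes were the same. The difference between lists was not tested.

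Without oxygen the strains also differed in the respiratory genes. AAC was called higher than AAP for 9 of 9 bc1 genes, with a median of 0.82, and for 8 of 9 oxidase genes, with a median of 0.84, beside 8 of 10 and 0.34 for ATP synthase and INH1 and 13.3% of all tested probe sets. The oxidase gene not called was COX5B, at 0.09 (adjusted p = 0.348). AAP was called lower than NC for 6 of 9 bc1 genes and 9 of 9 oxidase genes, beside 8.06% of all tested probe sets, and the 3 bc1 genes not called ran from -0.11 to 0.09. AAC was called higher than NC for 7 of 9 bc1 genes and 7 of 9 oxidase genes, against 2 of 10 for ATP synthase and INH1 and 6.71% of all tested probe sets. COX5B was called lower in AAC than in NC (-0.27, adjusted p = 0.0181), as were 5.29% of all tested probe sets. For the vacuolar ATPase the median of AAC minus AAP was -0.08, with 0 of 15 genes called higher and 3 lower, where 19.7% of all tested probe sets were called lower. Against NC 3 of 15 vacuolar ATPase genes were called higher in AAP, beside 12.9% of all tested probe sets. With the array labelled AAP aerobic replicate 3 left out of the fit, 7 of 15 were called higher in AAP than in NC. In that fit 5 of 15 were called lower in AAC than in AAP, and 8 of 9 bc1 genes higher in AAC than in NC. For these counts the shares over all tested probe sets in that fit are not given here. These lists were not tested against each other.

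**Figure D4:**
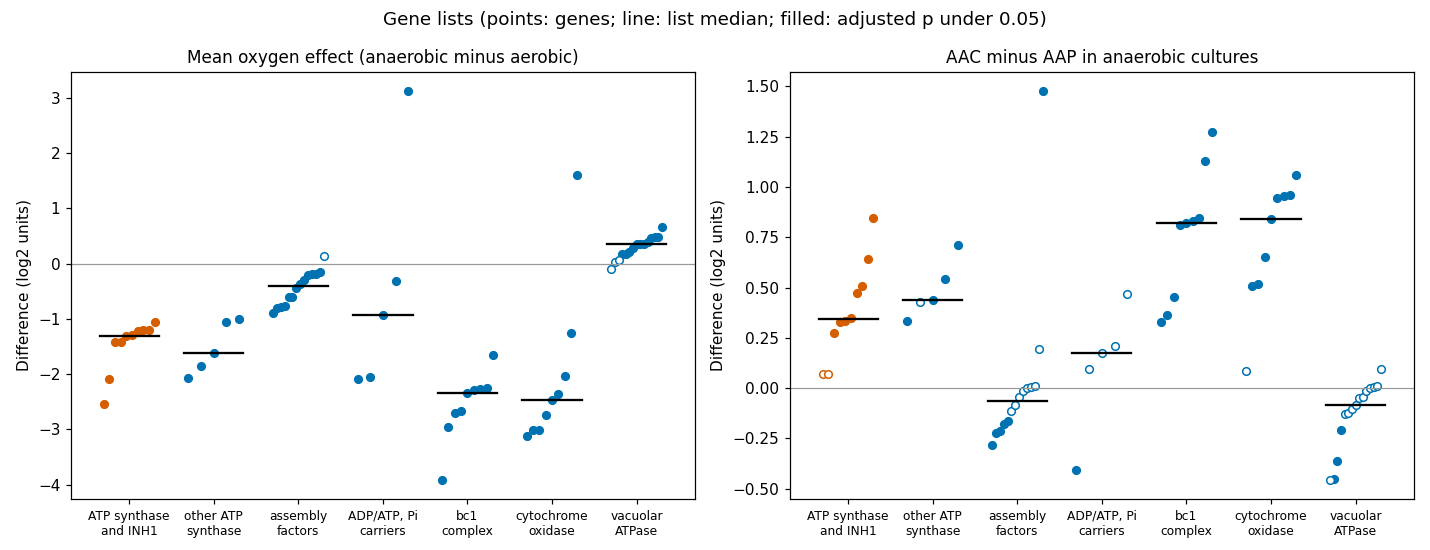
Log2 difference (vertical axis, log2 units) of each gene in 7 lists, for the mean oxygen effect (left) and for AAC minus AAP in anaerobic cultures (right), with list medians as lines and filled points where the adjusted p was under 0.05. The median of ATP synthase and INH1 lies at -1.30 on the left and 0.34 on the right, between the medians of the vacuolar ATPase (0.35 and -0.08) and those of the bc1 complex (-2.33 and 0.82).

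Regulators of these genes also changed. HAP4, the activating subunit of the Hap2/3/4/5 complex that drives respiratory genes, was 2.75-fold lower without oxygen (log2 difference -1.46 ± 0.0395, SE, adjusted p = 2.8e-14). HAP5, HAP3 and HAP2, which bind DNA in that complex, differed by -0.26, -0.23 and -0.17. HAP1, a heme-dependent activator, was higher by 1.09, and ROX1, the repressor of hypoxic genes, was at least 2.96-fold lower, with anaerobic NC and AAP under background. In anaerobic cultures HAP4 was lower in AAP than in NC by -0.26 ± 0.0684 (SE, adjusted p = 0.0165) and higher in AAC than in AAP by 0.23 ± 0.0684 (adjusted p = 0.0209). With oxygen, where none of the 10 genes was called, HAP4 was also higher in AAC than in AAP, by 0.28 ± 0.0684 (SE, adjusted p = 0.0389), as were 2.38% of all tested probe sets. That difference was 0.23 (adjusted p = 0.0262) when the array labelled AAP aerobic replicate 3 was left out. In that fit ATP4 was called higher in AAC than in AAP too, by 0.23 (adjusted p = 0.00174). There 1546 of 5498 tested probe sets were called in that comparison. HAP4 was then also called higher in aerobic AAC than in NC (0.18, adjusted p = 0.0397), which it was not with that array (adjusted p = 0.0724). That array is in neither group, so the difference itself was unchanged. Without the array 1650 of 5498 tested probe sets were called in this comparison, against 1067 with it. The oxygen effect on HAP4 was not called different between AAC and AAP (-0.06, adjusted p = 0.795). HAP1 was lower in anaerobic AAC than in NC, by -0.39 ± 0.0761 (SE, adjusted p = 0.00398).

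The inhibitor and the subunits followed each other across the arrays. With each gene centred on its own mean over the 18 arrays, the mean of the 9 subunits ran from 0.57 to 0.75 on aerobic arrays and INH1 from 1.15 to 1.40. On anaerobic arrays the 9 subunits averaged -0.53, -0.56 and -0.50 in AAC, -0.54, -0.66 and -0.70 in NC, and -0.86, -0.91 and -0.84 in AAP. INH1 stood at -0.96, -1.01 and -0.66 in AAC, -1.15, -1.17 and -1.26 in NC, and -1.71, -1.73 and -1.73 in AAP. In the mean of the 9 subunits only the AAP arrays were separate from the other strains, whereas INH1 separated all 3. Among the single subunits ATP7 and ATP16 also separated all 3 strains without oxygen.

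Outside the 10 genes, the profiles most like the mean of all 10 over the 18 arrays were those of RIP1, COX12, COX6 and SOD2 (Pearson r of 0.9965 each) and COX5A (0.9964). SOD2 encodes the superoxide dismutase of the mitochondrial matrix, RIP1 the iron-sulfur protein of the bc1 complex, and the others subunits of cytochrome c oxidase. Most like INH1 were QCR7 (0.9985), COX4 (0.9984) and COX12 (0.9978). These are descriptions with no test, since the arrays share 2 oxygen conditions that set most of each r. Within the 9 anaerobic arrays r with INH1 was 0.990 for QCR7 and 0.982 for COX4, and within the 9 aerobic arrays it was 0.505 and 0.493. For RIP1 and SOD2 the r with the mean of the 10 genes was 0.917 and 0.873 within anaerobic and 0.579 and 0.884 within aerobic arrays.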

How the data were processed

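The authors deposited 1 value per probe set and array, with PLIER and R 2.10.1 named in the submitters' processing notes. Per the labels' protocols, 250 ng total RNA was labelled with biotin and hybridised. The deposited values are read here as log2 values from their range of 4.85 to 12.8. How background was corrected and arrays were normalized, and which logarithm was taken, is not given in the sources used here. Every fold rests on the log2 reading. Gene names came from the platform annotation, updated through a current gene table (12 symbols).

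The fit gave each of the 6 groups its own mean and used all 18 arrays (lmFit and eBayes of limma 3.58.1, run in R 4.3.3). It had 12 residual degrees of freedom and 3.10 prior ones, and was tested on simulated data. There were 13 contrasts. Two-sided p-values were adjusted within each contrast over the 5498 tested probe sets (Benjamini and Hochberg), and those under 0.05 were called. Where a group mean lay under background, a fold is a lower bound (at least), from values raised to the background level of their array.

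The members and gene lists were chosen with earlier results of these data known. The text names all 10 members, up to 4 genes of smallest p in each longer list, every gene of lists of 8 or fewer measured genes, and the 5 and 3 genes of highest Pearson r with the mean of the members and with INH1. ATP10, NCA3, COX5B and VMA2 were named after their values were seen. A planned search of promoter sequences was not run, as no sequence was used here.

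The alternatives changed the scaling (quantile normalization or median centring of arrays), dropped dim probe sets, turned on the trend and robust options of eBayes, restricted the fit to the compared groups, took the replicate number as a block, removed a loess trend on coding length (span 0.5) or left out each array in turn. The block together with the length trend was added after the data were seen. No label ties a replicate number to a batch, and the pairing was checked in the deviations from group means. In aerobic cultures all 3 same-number pairs correlated above 0.1 for AAC with AAP (0.168, 0.249 and 0.456) and for NC with AAC (0.126, 0.233 and 0.326). None of the 7 other pairs of groups compared met that mark.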

Additional observations from a re-analysis of the deposited data

Results flagged for a closer look

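The oxygen effect differed between strains for 7 pairs of gene and strain comparison, by the interaction terms of the limma fit. Between AAC and NC it differed for ATP7 by 0.45 log2 units. Between AAP and NC it differed for ATP17 by -0.59 and for INH1 by -0.52. Between AAC and AAP it differed for ATP3 by 0.37, for ATP16 by 0.31, for ATP7 by 0.63 and for INH1 by 0.73. All 7 differences have the smaller fall in AAC or the larger fall in AAP. The 3 comparisons share groups, so the 7 values are not independent.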

How the results depend on the processing

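The counts of 10 genes called lower without oxygen in NC, AAC, AAP and their mean, and of 0 genes called in aerobic AAC against NC and AAP against NC, were the same under every alternative run, and no called difference changed sign in any of them. For the AAC and AAP interaction the 4 genes became 2 with quantile normalization, with eBayes trend and robust settings, with the coding length trend removed, with the replicate block and that trend removed together, and in a fit to only the groups compared. The 2 genes of the AAP and NC interaction became 1 with the length trend removed and in a fit to only the groups compared. In that last fit the anaerobic counts became 1 for AAC against NC and 4 for AAP against NC. Leaving out single arrays gave 0 to 1 genes for aerobic AAC against AAP, 1 to 6 for anaerobic AAC against NC, 3 to 7 for anaerobic AAP against NC, and 8 throughout for anaerobic AAC against AAP. It gave 0 to 3, 1 to 3 and 2 to 5 genes for the interactions of AAC with NC, AAP with NC and AAC with AAP. The replicate block changed 1 call of a gene, ATP16 in the interaction of AAC with AAP (0.31, adjusted p = 0.0540), and no other. The cause of these changes was not tested. Fits that leave arrays out also rest on fewer arrays, and the part of this in the changes was not tested either.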

Other observations

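Of the 14 assembly and expression genes, 1 was called higher and 5 lower in anaerobic AAC than in anaerobic AAP, beside 13.3% and 19.7% of all tested probe sets and 8 of 10 higher among the ATP synthase genes and INH1. The gene called higher was NCA3, named for its part in the expression of the mitochondrial ATP6 and ATP8 transcripts and chosen here after its values were seen. It averaged 7.21 log2 units in anaerobic AAC, 5.74 in AAP and 5.94 in NC, so that AAC exceeded AAP by 1.48 ± 0.177 (SE, adjusted p = 5.14e-05) and NC by 1.27 ± 0.177 (adjusted p = 0.000237) in the limma fit. AAP and NC differed there by -0.21 (adjusted p = 0.430). With oxygen NCA3 was also called higher in AAC, by 1.13 over NC (adjusted p = 0.0014) and by 0.79 over AAP (adjusted p = 0.0325). The AAP mean in that last value includes the array labelled AAP aerobic replicate 3, and the value without it is not given here. NCA3 averaged 5.67 in aerobic NC. That mean and the mean in anaerobic AAP lay close to the background level of 5.58 over all arrays. The oxygen effect on NCA3 was not called different between AAC and NC (0.14, adjusted p = 0.804).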
